A study of Mus musculus with 15 samples.

Results

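The subject is a set of 10 genes for secreted acute phase proteins of the mouse liver: the serum amyloid A genes Saa1, Saa2, Saa3 and Saa4, the orosomucoid genes Orm1 and Orm2, lipocalin 2 (Lcn2), haptoglobin (Hp), hemopexin (Hpx) and serum amyloid P component (Apcs). They were chosen by name, through the Ensembl identifiers of the deposited table, and are 10 of 54281 genes in it. All 10 passed the filter on low values that left 11568 genes for testing. Each of the 10 lay above the lowest value of the table in all 15 libraries.

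Liver RNA of 15 mice, male C57BL6J animals 9.5 months of age, was sequenced with 1 library per animal. The DEN/HFD mice received the liver carcinogen diethylnitrosamine (DEN) at 25 mg/kg when 2 weeks old. After a first period on chow they ate a high fat diet (HFD) with 60% of its energy from lard for 32 weeks, which the labels describe as a model of progressive fatty liver disease. Their chow counterparts received the vehicle and stayed on chow. Within each diet, mice received MCOPPB, an agonist of the nociceptin receptor, or saline. MCOPPB was injected intraperitoneally at 5 mg/kg on 5 days followed by 2 days without injection, for 3 cycles and 21 days in all. Saline was given to 3 mice on chow and 4 with DEN/HFD, and MCOPPB to 5 mice on chow and 3 with DEN/HFD. Carcinogen and diet were always given together, so their parts cannot be told apart.

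The acute phase response is the change in liver secretion that follows infection, injury or inflammation. Interleukin 6 acts on hepatocytes through a receptor that activates STAT3, and interleukin 1 and tumour necrosis factor act through NF-kB. The C/EBP factors, Cebpb and Cebpd among them, act together with both on many acute phase promoters. Genes of proteins that become abundant are called positive acute phase genes, and those of proteins that become scarce, such as albumin, negative ones. Saa1 and Saa2 are the strongest responders of the mouse liver, whereas Saa4 is made constitutively.

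Saa1, Saa2, Saa3 and Saa4 lie together on chromosome 7 of GRCm38, between 46711998 and 46754313, and Orm1 and Orm2 lie together on chromosome 4, between 63344560 and 63365878. The pairs Saa1 and Saa2, and Orm1 and Orm2, are close copies, which bears on how reads can be assigned to them. The coding sequences of Saa1 and Saa2 differed at 18 of 366 bases (95.1% identical). Coding bases 40 to 189 are shown, with the 12 bases that differ between the genes in capitals.
Saa1: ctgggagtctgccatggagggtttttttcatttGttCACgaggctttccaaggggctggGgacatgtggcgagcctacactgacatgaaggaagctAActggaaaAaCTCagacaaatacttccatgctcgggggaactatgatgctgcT
Saa2: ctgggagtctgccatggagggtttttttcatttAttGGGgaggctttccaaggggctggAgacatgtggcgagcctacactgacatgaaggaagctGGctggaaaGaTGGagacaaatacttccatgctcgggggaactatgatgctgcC
Of the 75-base stretches of the Saa1 transcript, 4.67% occur identically in a Saa2 transcript, and 1.04% of those of Saa2 occur in Saa1. The coding sequences of Orm1 and Orm2 differed at 63 of 621 bases (89.9% identical). Coding bases 139 to 288 are shown, with the 29 differing bases in capitals.
Orm1: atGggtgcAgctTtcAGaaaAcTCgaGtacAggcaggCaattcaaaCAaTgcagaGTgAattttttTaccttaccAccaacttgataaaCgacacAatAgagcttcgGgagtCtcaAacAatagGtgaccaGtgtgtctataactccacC
Orm2: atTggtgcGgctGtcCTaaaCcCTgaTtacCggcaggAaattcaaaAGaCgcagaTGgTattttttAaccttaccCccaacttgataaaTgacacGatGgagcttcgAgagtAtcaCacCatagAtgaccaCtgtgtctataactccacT
Here 13.8% of the 75-base stretches of Orm1 and 13.98% of those of Orm2 occur in another orosomucoid gene. The values of Orm1 and Orm2 are therefore less certain than those of the other genes. No stretch of Saa3, Saa4, Lcn2, Hp, Hpx or Apcs was shared with another gene.

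Promoter sequences from RefSeq (GRCm38.p6) were available for 8 of the 10 genes. Their 250 bases before the RefSeq start were searched on both strands for the C/EBP letters TTGCNNAA and the STAT letters TTCNNNGAA. An NF-kB motif was also searched for in these promoters, without a match. Its letters and its share over all promoters are not given here. A C/EBP match was found in 7 of the 8 (all but Apcs), beside 9.56% of 32851 promoters of this length. A STAT match was found in Apcs alone, beside 7.02% of all promoters. The promoters of the 3 most variable genes of the pairs and of the constitutive Saa4 are shown 5′ to 3′ on the strand of the gene, with the C/EBP matches in capitals. By the GENCODE start the window of Lcn2 lies wholly inside the gene, and the ends of those of Saa2, Saa3 and Hpx do so. Without Lcn2, 6 of 7 windows held a C/EBP match, each before the GENCODE start, and Saa2 is shown only up to that start.
Saa1, chr7:46742981-46743230, minus strand: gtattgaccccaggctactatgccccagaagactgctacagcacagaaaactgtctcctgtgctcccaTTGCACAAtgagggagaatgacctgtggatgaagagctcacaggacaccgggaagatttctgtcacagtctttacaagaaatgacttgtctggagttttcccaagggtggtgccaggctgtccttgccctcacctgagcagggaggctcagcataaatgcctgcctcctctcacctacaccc
Saa2, chr7:46751583-46751789, plus strand: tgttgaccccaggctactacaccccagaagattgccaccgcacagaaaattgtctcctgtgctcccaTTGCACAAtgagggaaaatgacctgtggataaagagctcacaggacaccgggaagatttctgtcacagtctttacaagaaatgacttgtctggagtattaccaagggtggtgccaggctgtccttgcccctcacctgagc
Orm2, chr4:63362199-63362448, plus strand: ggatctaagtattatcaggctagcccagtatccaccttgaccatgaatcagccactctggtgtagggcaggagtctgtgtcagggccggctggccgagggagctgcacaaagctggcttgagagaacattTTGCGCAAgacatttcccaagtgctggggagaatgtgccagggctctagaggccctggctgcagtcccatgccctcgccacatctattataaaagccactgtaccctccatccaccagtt
Saa4, chr7:46732604-46732853, minus strand: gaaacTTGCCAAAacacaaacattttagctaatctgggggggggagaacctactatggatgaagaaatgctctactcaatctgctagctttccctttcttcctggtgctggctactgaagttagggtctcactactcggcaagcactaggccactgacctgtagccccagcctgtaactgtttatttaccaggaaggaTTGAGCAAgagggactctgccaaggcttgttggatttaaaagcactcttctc
Positions are counted from the RefSeq start, and for Saa2 the last 43 bases before that start are not shown. The match lies at -182 to -175 in Saa1 and at -183 to -176 in Saa2, with the same 8 letters in both, and at -120 to -113 in Orm2. Saa4 holds a pair of matches, at -245 to -238 and at -52 to -45. The other matches lie at -99 to -92 in Saa3, -216 to -209 in Lcn2 and -200 to -193 in Hpx. These are matches of letters only, and binding was not measured.

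The deposited values are variance-stabilised levels on a log2 scale. Levels are given here as normalized counts obtained by inverting that scale, and differences as log2 differences of the deposited values. Depth was estimated at 9.32 M to 18.7 M reads per library. In bulk tissue, fewer cells of a type and less RNA per cell cannot be told apart. Nothing in the labels states more about the replicates than that they are different mice, and p-values measure the spread between these libraries. A pair of libraries stood apart from their groups. Chow MCOPPB 1 was the highest of the 15 libraries for 9 of the 10 genes, all but Saa3, whereas it was the highest for 4.35% of all genes tested. DEN/HFD saline 4 was the lowest of its 4 libraries for 9 of the 10 genes, all but Saa4, beside 28.3% of all genes tested. Results that rest on either are given with and without it. Leaving them out was chosen after their values were seen. Their estimated depths were 16.6 M and 18.2 M reads, the latter the highest of its group. The sum of normalized counts was the lowest of the 15 in chow MCOPPB 1 (1.24e+07) and the highest in DEN/HFD saline 4 (1.91e+07). Transcripts of the mitochondrial genome took 18.1% of normalized counts in chow MCOPPB 1 and 12.01%, the lowest of the 15, in DEN/HFD saline 4.

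**Figure D1:**
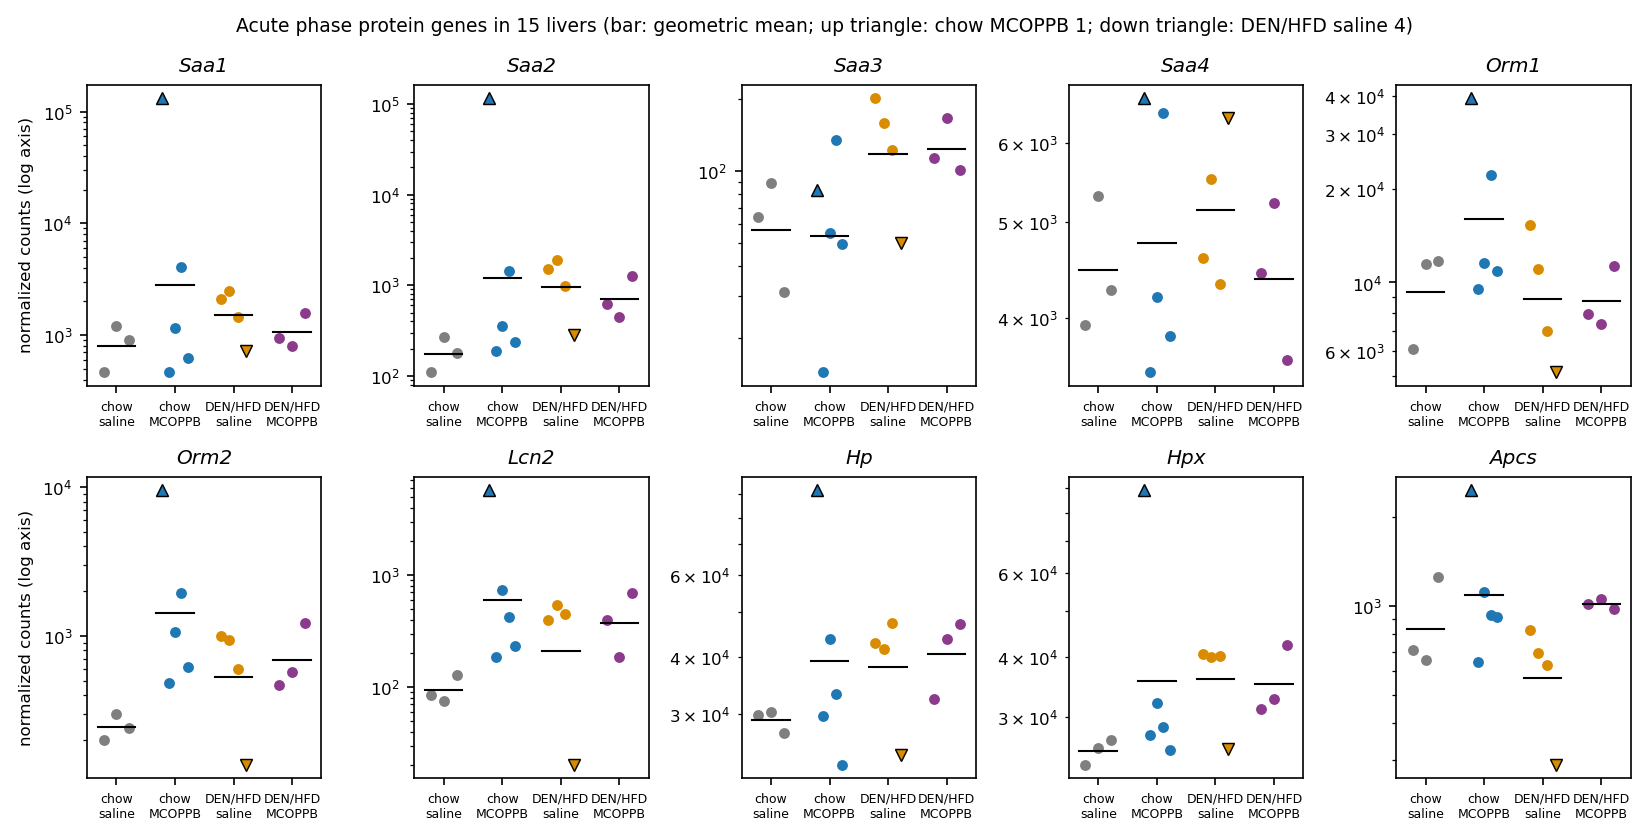
Normalized counts (log axis) of the 10 acute phase protein genes in each of the 15 libraries, by group. Points are libraries and bars are geometric means of a group. The up triangle, chow MCOPPB 1, is the highest point of 9 panels, and the down triangle, DEN/HFD saline 4, is the lowest of its group in 9.

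Serum amyloid A1 and A2 are small apolipoproteins that travel with high density lipoprotein during inflammation. In chow saline livers Saa1 stood at 464, 1206 and 895 normalized counts. In chow MCOPPB livers it stood at 131929, 470, 1162, 4080 and 620. The first of these was 32.3 times the highest of the other 14 libraries, the fourth lay above all chow saline values, and the remaining 3 lay within the chow saline range. Under DEN/HFD, saline livers had 2098, 2458, 1447 and 720, and MCOPPB livers 947, 801.5 and 1567. The first 3 DEN/HFD saline livers lay above every chow saline liver, and the fourth lay inside their range.

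Saa2 stood at 109, 269 and 180 normalized counts in chow saline livers. The chow MCOPPB livers had 116319, 188, 353, 1434 and 235. Under DEN/HFD the counts were 1517, 1905, 991 and 279 with saline and 628, 443 and 1272 with MCOPPB. All 7 DEN/HFD livers therefore lay above all 3 chow saline livers, the fourth DEN/HFD saline liver by the narrowest margin. In chow MCOPPB 1, Saa2 was 61.1 times the highest of the other 14 libraries, the largest such ratio of the 10 genes. By mean log2 level the order for both Saa1 and Saa2 was chow MCOPPB, DEN/HFD saline, DEN/HFD MCOPPB and chow saline, and neighbours in that order overlapped except DEN/HFD MCOPPB and chow saline for Saa2.

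Saa3, made largely outside hepatocytes, in macrophages and adipose tissue among others, did not share the peak of chow MCOPPB 1. It stood at 64.4, 89.6 and 31.1 normalized counts in chow saline and at 83.5, 14.3, 54.8, 134 and 49.7 in chow MCOPPB livers. DEN/HFD livers had 202, 159, 122 and 49.8 with saline and 113, 167 and 101 with MCOPPB. All DEN/HFD livers but the fourth saline one lay above all 3 chow saline livers. Saa4, an apolipoprotein made without an inflammatory stimulus, had the narrowest spread of the 10 genes over all 15 libraries. It ranged from 3529 to 6653 normalized counts, a ratio of 1.89 between highest and lowest, and all 4 groups overlapped. Without chow MCOPPB 1 that ratio was 1.82 for Saa4, and Hpx was narrower at 1.78.

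The orosomucoids, or alpha-1-acid glycoproteins, are lipocalins that bind drugs and lipids in plasma. Orm1 stood at 6083, 11477 and 11689 normalized counts in chow saline livers and at 39212, 9554, 11592, 22129 and 10921 in chow MCOPPB livers. Under DEN/HFD, saline livers had 15279, 11065, 6970 and 5134, and MCOPPB livers 7933, 7355 and 11271. Chow MCOPPB 1 and chow MCOPPB 4 were the highest of all, and the other groups overlapped throughout.

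Orm2 separated the chow groups more clearly. Its counts were 200, 299 and 238 in chow saline livers and 9521, 484, 1067, 1944 and 616 in chow MCOPPB livers, so every MCOPPB liver on chow exceeded every saline one. DEN/HFD saline livers had 999, 937, 602 and 136, and DEN/HFD MCOPPB livers 467, 569 and 1216. The fourth DEN/HFD saline liver was the lowest of the 15, and all other DEN/HFD livers lay above all chow saline livers.

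Lipocalin 2 withholds iron from bacteria by binding their siderophores and is made by hepatocytes and neutrophils. Lcn2 stood at 85.0, 75.02 and 127 normalized counts in chow saline livers and at 5693, 186, 737, 426 and 230 in chow MCOPPB livers. As for Orm2, the chow groups did not overlap. With DEN/HFD the counts were 394, 539, 446 and 20.3 in saline and 399, 184 and 691 in MCOPPB livers. DEN/HFD saline 4 was 22.0-fold below the median of the other 3 livers of its group and was the lowest of all 15 libraries.

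Haptoglobin binds free haemoglobin, and hemopexin binds free haem. Both were abundant in every liver. Hp stood at 29934, 30387 and 27362 normalized counts in chow saline livers and at 91564, 29681, 43722, 33190 and 23336 in chow MCOPPB livers. DEN/HFD saline livers had 42801, 41491, 47378 and 24475, and DEN/HFD MCOPPB livers 32363, 43762 and 47105. Hpx stood at 23803, 25837 and 26813 in chow saline and at 89148, 27396, 32073, 28559 and 25557 in chow MCOPPB livers. For Hpx, DEN/HFD saline livers had 40520, 40016, 40114 and 25611, and DEN/HFD MCOPPB livers 31088, 32586 and 42446. For both genes the first 3 DEN/HFD saline livers lay close together and above all chow saline livers, and the fourth lay 1.75-fold (Hp) and 1.57-fold (Hpx) below their median.

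Serum amyloid P component is a pentraxin and an acute phase protein of the mouse. Apcs stood at 707, 654 and 1254 normalized counts in chow saline livers and at 2462, 646, 1112, 929 and 914 in chow MCOPPB livers. DEN/HFD saline livers had 827, 690, 628 and 290, and DEN/HFD MCOPPB livers 1015, 1053 and 974. Under DEN/HFD all 3 MCOPPB livers lay above all 4 saline livers. By mean log2 level, DEN/HFD saline was the lowest of the 4 groups for Apcs.

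Per kilobase of the principal transcript, the median levels in chow saline livers were 22256 normalized counts for Hp, 17236 for Hpx and 14809 for Orm1. Saa4 followed at 2039, Saa1 at 1469 and Apcs at 728. The lowest were Orm2 at 307, Saa2 at 277, Saa3 at 116 and Lcn2 at 92.9. The order was different in chow MCOPPB 1, with Saa1 at 216632 and Saa2 at 178403 normalized counts per kilobase, above Hp at 68078 and Hpx at 59472. Albumin (Alb), the most abundant liver transcript, stood at 697463 on that scale in the same library. The 10 genes together took 3.98% of normalized counts in chow MCOPPB 1 and 0.331% to 0.837% in the other 14 libraries.

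**Figure D2:**
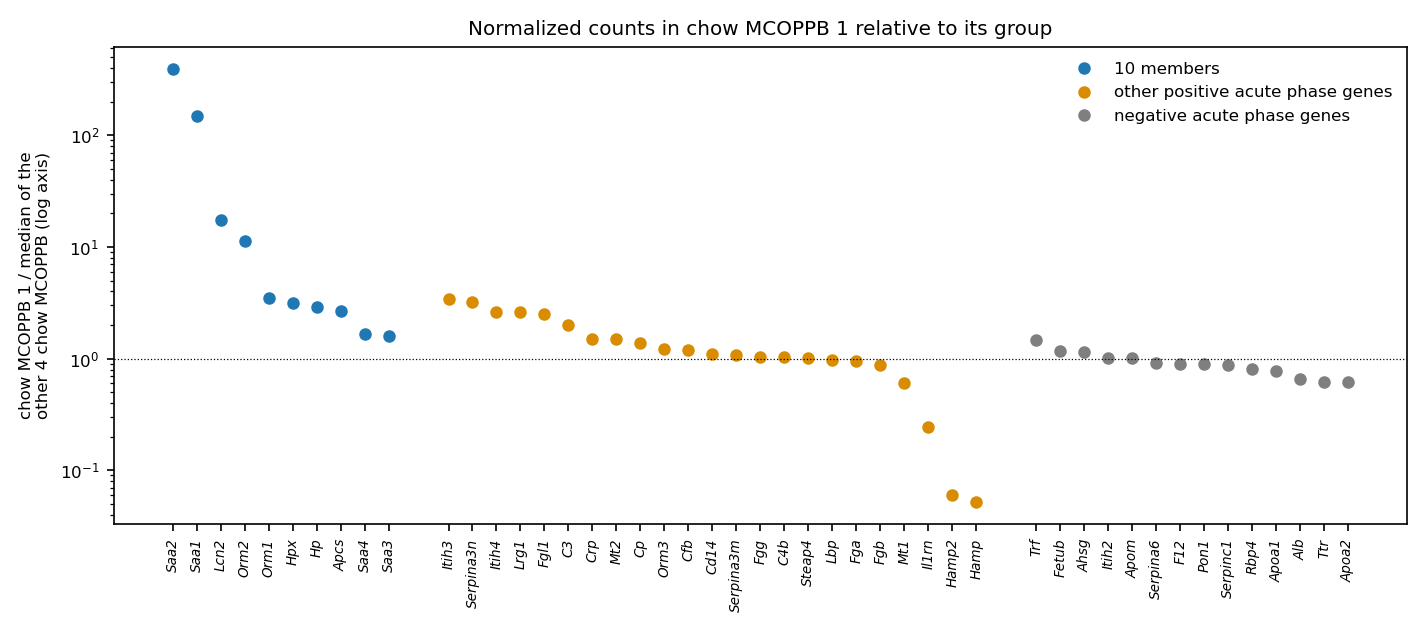
Normalized counts in chow MCOPPB 1 divided by the median of the other 4 chow MCOPPB libraries (log axis), for the 10 genes and for other positive and negative acute phase genes, each point a gene. Saa2 (396) and Saa1 (148) are the highest points, and Hamp (0.0518) the lowest.

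The first comparison asked how MCOPPB changed the liver on chow. The log2 difference was above 0 for all 10 genes, and its median was 0.63 beside 0.0012 for all genes tested. By limma none passed the test, and 37 genes of the whole table did (0.32%). The largest differences were those of Saa2 at 2.49 ± 1.35 (SE, adjusted p = 0.628), Orm2 at 2.25 ± 0.69 (adjusted p = 0.26), Lcn2 at 2.08 ± 0.78 (adjusted p = 0.411) and Saa1 at 1.79 ± 1.18 (adjusted p = 0.703). Orm2 and Lcn2 were the 2 genes of the 10 with an unadjusted p under 0.05 (0.00466 and 0.0163), beside 4.76% of all genes in this direction. They were also the only 2 whose groups did not overlap, beside 2.64% of all genes. The differences of Orm1, Hpx, Hp, Apcs, Saa4 and Saa3 were 0.77, 0.48, 0.42, 0.35, 0.09 and 0.01.

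Without chow MCOPPB 1 the median difference of the 10 genes was 0.29, and 8 of the 10 were positive. By limma, Orm2 was then at 1.59 ± 0.50 (unadjusted p = 0.00569, adjusted p = 0.319) and Lcn2 at 1.33 ± 0.56 (unadjusted p = 0.0298, adjusted p = 0.541). Of all genes, 4.19% were higher with an unadjusted p under 0.05. The chow groups still did not overlap for Orm2 or Lcn2, beside 3.54% of all genes. Saa1 was at 0.43 ± 0.55 and Saa2 at 0.92 ± 0.58, while Saa3 (-0.06) and Saa4 (-0.03) changed sign. The first RNA integrity number (RIN) in the labels also differed between these groups, at 9.9 to 10 in chow MCOPPB and 9 to 9.7 in chow saline. With that RIN as a covariate, the difference was 1.75 ± 1.04 for Orm2 and 1.83 ± 1.18 for Lcn2, and neither had an unadjusted p under 0.05 (0.11 and 0.14). With the second RIN in the labels instead, the unadjusted p by limma was 0.00813 and 0.0188 (adjusted p = 0.463 and 0.571). With the mitochondrial share as a covariate it was 0.00217 and 0.019 (adjusted p = 0.197 and 0.407).

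Under DEN/HFD, MCOPPB livers were compared with saline livers in the same way. The 10 genes were split 5 against 5 by direction, with a median difference of -0.0043 beside -0.0038 for all genes. By limma none passed the test and none had an unadjusted p under 0.05, beside 3 genes of the whole table that passed (0.0259%) and 4.74% with such a p. Apcs was the gene of the 10 with the smallest unadjusted p (0.0532), and without chow MCOPPB 1, which is in neither group, its SE was 0.28 and its unadjusted p 0.0184 (limma, adjusted p = 0.974), beside 2.21% of all genes higher with a p under 0.05. Its difference was 0.74 ± 0.36 (limma, adjusted p = 1), and its groups did not overlap, beside 3.22% of all genes. Without DEN/HFD saline 4 the difference of Apcs was 0.46 ± 0.34 (unadjusted p = 0.19), its groups still did not overlap (4.92% of all genes), and the other 9 genes were negative, with a median of -0.23 over the 10. Saa1 and Saa2, for example, went from -0.49 ± 1.23 and -0.40 ± 1.41 to -0.83 and -0.92. DEN/HFD saline 4 was the lowest of its group for 9 of the 10 genes, so leaving it out lowers the differences of those 9.

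The comparison of DEN/HFD with chow in saline livers asked what carcinogen and diet did without the compound. Of the 10 genes, 8 had a positive difference, all but Orm1 (-0.08) and Apcs (-0.48), with a median of 0.55 beside 0.01 for all genes. By limma none passed the test and none had an unadjusted p under 0.05, beside 6 genes of the whole table that passed (0.0519%) and 5.46% with such a p and a higher level under DEN/HFD. Saa2 had the largest difference, 2.03 ± 1.41 (adjusted p = 0.645), and was the 1 gene of the 10 whose groups did not overlap, beside 4.73% of all genes. Lcn2 was at 0.99 ± 0.82, Orm2 at 0.97 ± 0.73, Saa1 at 0.87 ± 1.23, Saa3 at 0.61 ± 0.31, Hpx at 0.50 ± 0.35, Hp at 0.37 ± 0.37 and Saa4 at 0.20 ± 0.25. The errors come from the spread over all 4 groups. Without chow MCOPPB 1, which is in neither group, they were smaller for 9 of the 10 genes, as for Saa2 (SE 0.58), and not for Saa3 (SE 0.32). By limma, Saa2 and Hpx then had an unadjusted p under 0.05 (0.00283 and 0.0399, adjusted p = 0.233 and 0.438). Of all genes, 5.3% were higher with such a p. That library was left out for its values of these genes, so this share is not a like background.

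Both libraries that stood apart bore on this comparison. Without DEN/HFD saline 4, groups did not overlap for 7 of the 10 genes (Saa1, Saa2, Saa3, Orm2, Lcn2, Hp and Hpx), beside 8.87% of all genes, and 52 genes of the whole table passed the test (0.45%). None of the 10 was among them. Without both libraries, Saa2 passed the test at 2.54 ± 0.51 (adjusted p = 0.0488), with 40 genes of the whole table (0.346%). The same 7 genes then had an unadjusted p under 0.05, beside 6.61% of all genes in this direction. Among them Lcn2 was at 1.66 ± 0.39 (adjusted p = 0.0884), Orm2 at 1.49 ± 0.40 (adjusted p = 0.134), Hpx at 0.66 ± 0.21 (adjusted p = 0.198) and Saa3 at 0.85 ± 0.30 (adjusted p = 0.253). These values rest on leaving out the lowest DEN/HFD saline liver after it was seen, and describe the other 3 animals. As that liver was the lowest of its group for 9 of the 10 genes, leaving it out favours their separation. The shares of all genes are therefore not a like background, and no conclusion is drawn from these counts.

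**Figure D3:**
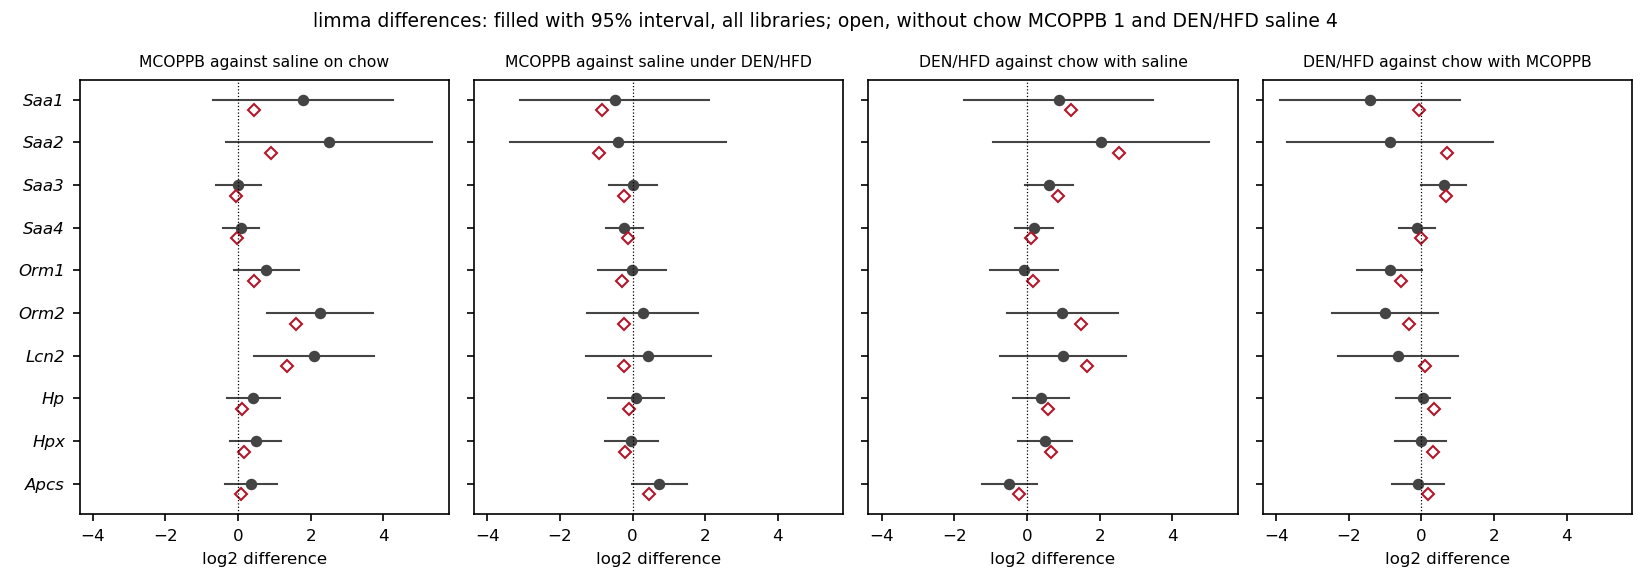
Log2 differences of the 10 genes in 4 comparisons. Filled points with bars are the limma estimates with their 95% intervals over all 15 libraries, and open diamonds are the estimates without chow MCOPPB 1 and DEN/HFD saline 4. On chow the diamonds of Saa1 and Saa2 lie at 0.43 and 0.92, beside 1.79 and 2.49 with all libraries.

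Among MCOPPB livers, DEN/HFD was compared with chow. Here 8 of the 10 differences were negative, with a median of -0.38 beside -0.0050 for all genes, and Saa3 (0.61 ± 0.30) and Hp (0.05 ± 0.35) were the positive ones. By limma none of the 10 passed the test and none had an unadjusted p under 0.05, beside 66 genes of the whole table that passed (0.571%) and 12.3% with such a p. Without chow MCOPPB 1, 7 of the 10 were positive and the median was 0.14. Saa2, Saa4, Lcn2, Hpx and Apcs changed sign, while Saa1, Orm1 and Orm2 stayed negative. The difference between the MCOPPB effects on both diets was negative for 8 of the 10 genes, with a median of -0.66, and none passed its test or had an unadjusted p under 0.05, beside 8 genes of the whole table that passed (0.0692%) and 5.9% with such a p. For Orm2 it was -1.96 ± 1.00 (unadjusted p = 0.0667, adjusted p = 0.835). The median of this difference was -0.33 without chow MCOPPB 1, -0.87 without DEN/HFD saline 4 and -0.54 without both. Without DEN/HFD saline 4, Orm2 and Lcn2 had an unadjusted p under 0.05 (0.0182 and 0.0396), beside 2.89% of all genes in this direction. Without both libraries Orm2 was at -1.83 ± 0.55, Lcn2 at -1.56 ± 0.53 and Saa2 at -1.83 ± 0.70, each with an unadjusted p under 0.05 (0.00452, 0.0103 and 0.0197), beside 2.82% of all genes. Their adjusted p-values by limma were then 0.719, 0.765 and 0.898, so none of the 10 passed with or without these libraries. Both libraries were left out for their values of these genes, so the shares of all genes are not a like background here. The comparisons share groups of libraries, so their values are not independent of each other.

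Within the gene pairs the proportions also varied. The ratio of Saa2 to Saa1 normalized counts was 0.202 to 0.236 in chow saline livers. It was 0.304 to 0.399 in 4 chow MCOPPB livers and 0.882 in the first. DEN/HFD saline livers had 0.684 to 0.775 in the first 3 and 0.388 in the fourth, and DEN/HFD MCOPPB livers 0.553 to 0.812. Every liver of the other 3 groups thus lay above every chow saline liver. Orm2 to Orm1 gave a like picture, with 0.0204 to 0.0328 in chow saline and 0.0507 to 0.243 in chow MCOPPB livers. DEN/HFD livers had 0.0265 to 0.0864 with saline and 0.0589 to 0.108 with MCOPPB, and the lowest of these was again DEN/HFD saline 4, inside the chow saline range. These ratios were looked at after the values were seen and were not tested. Reads shared between the copies, given above, bear more on the orosomucoid ratio than on that of the amyloid genes.

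**Figure D4:**
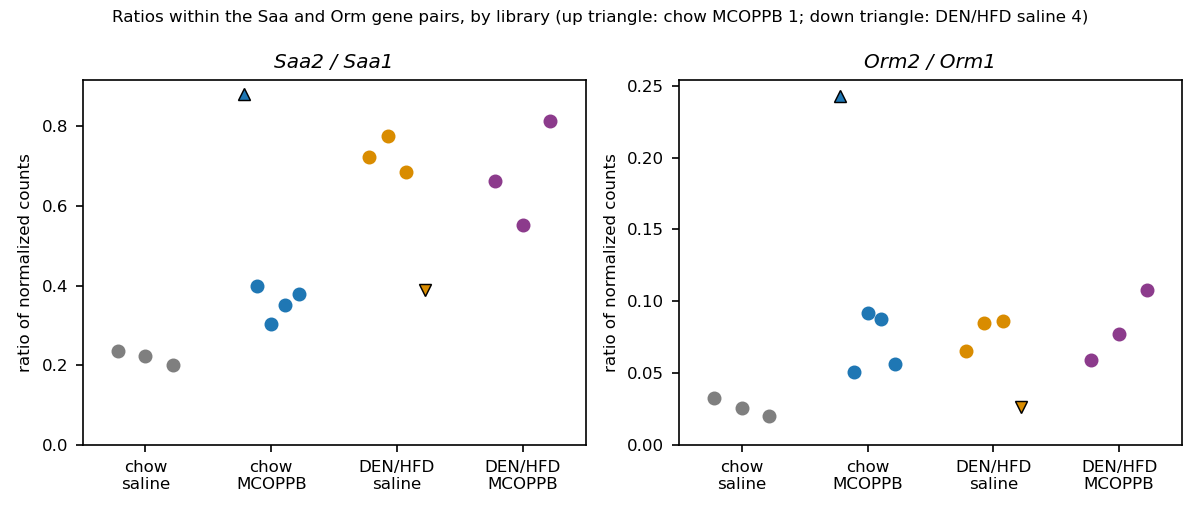
Ratio of normalized counts of Saa2 to Saa1 (left) and of Orm2 to Orm1 (right) in each library, by group, with 1 point per library. Chow saline livers are the lowest group for Saa2 to Saa1, at 0.202 to 0.236, and chow MCOPPB 1 has the highest ratio of both pairs.

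Other positive acute phase genes were read from a list of 24, of which 23 were tested. A2m, alpha-2-macroglobulin, was left out as too low. On chow with MCOPPB, 17 of the 23 had a positive difference, with a median of 0.56, and by limma none passed the test and 7 had an unadjusted p under 0.05, all positive, beside 4.76% of all genes higher. The 4 smallest p-values were those of Mt2, a metallothionein (1.39 ± 0.39, adjusted p = 0.213), Fgl1, a secreted fibrinogen-like protein (1.32 ± 0.40, adjusted p = 0.258), Mt1 (1.32 ± 0.42, adjusted p = 0.295) and Orm3 (1.18 ± 0.39, adjusted p = 0.315). Orm3, the third orosomucoid gene, stood at 25.2 to 63.9 normalized counts in chow saline and 89.4 to 357 in chow MCOPPB livers. These do not overlap, beside 2.64% of all genes in this direction. Without chow MCOPPB 1, 16 of the 23 were positive, with a median of 0.30, close to that of the 10 genes (0.29).

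In chow MCOPPB 1 this list was mixed. The library was the highest of the 15 for 7 of the 23: C-reactive protein (Crp), the inter-alpha-inhibitor chains Itih3 and Itih4, the protease inhibitor Serpina3n, complement C3, Lrg1 and Fgl1. Their ratios to the highest other library were 1.30 to 2.30, far from the 32.3 and 61.1 of Saa1 and Saa2. The fibrinogen chains Fga, Fgb and Fgg, also positive acute phase genes, ranked 5, 11 and 6 among the 15 libraries there. Hepcidin (Hamp), which closes the iron exporter ferroportin and responds to interleukin 6, was the lowest of the 15, at 329 normalized counts beside 1314 to 30267 in the others. Among 14 negative acute phase genes it was the lowest library for 3: transthyretin (Ttr) and the apolipoproteins Apoa1 and Apoa2. Alb stood at 0.653 of the median of the other 4 chow MCOPPB livers and ranked 12 among the 15 libraries. Transferrin (Trf, 1.46), Fetub (1.18), Ahsg (1.14), Itih2 (1.02) and Apom (1.01) lay above that median, and the others of the 14 below it.

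DEN/HFD saline 4 was the highest of the 15 libraries for Hamp, at 30267 normalized counts. In the comparison of DEN/HFD with chow among saline livers, 12 of the 23 positive genes had a positive and 11 a negative difference, with a median of 0.0080. Orm3 (1.31 ± 0.41, adjusted p = 0.257) and Il1rn, the interleukin 1 receptor antagonist (0.76 ± 0.28, adjusted p = 0.314), had the smallest p-values of those above 0. Without DEN/HFD saline 4, Orm3 passed the limma test at 1.79 ± 0.29 (adjusted p = 0.0176), as did 0.45% of all genes. Without both libraries it passed as well (adjusted p = 0.0247), as did 0.346% of all genes. DEN/HFD saline 4 was the lowest of its group for Orm3 too, so leaving it out favours this result. No conclusion is drawn from it. Under DEN/HFD with MCOPPB, 12 of 23 were positive, with a median of 0.05. Among MCOPPB livers, DEN/HFD against chow gave 17 negative and 6 positive differences, with a median of -0.23. Of these, 7 lower and 1 higher had an unadjusted p under 0.05, beside 6.35% of all genes lower and 5.98% higher. The copper carrier ceruloplasmin (Cp) passed this test at 0.86 ± 0.19 (adjusted p = 0.0462), the 1 gene of all the lists that did in any comparison over the 15 libraries. It stood at 9649 to 14953 normalized counts in chow and 20277 to 21920 in DEN/HFD MCOPPB livers. The call held without chow saline 1, chow saline 2, chow MCOPPB 1 or DEN/HFD saline 4 and was lost without any other single library, with an adjusted p of 0.0526 to 0.198. It was also lost with no filter (limma, adjusted p = 0.0917), with only the groups compared (adjusted p = 0.0787), with the first or second RIN as a covariate (adjusted p = 0.331 and 0.0951) and with a replicate block (adjusted p = 0.273).

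Of the 14 negative acute phase genes, 11 had a positive difference on chow with MCOPPB and 3 a negative one, with a median of 0.17. Apoa1, the main apolipoprotein of high density lipoprotein, was at -0.75 ± 0.26 (adjusted p = 0.346). Its groups did not overlap, beside 2.14% of all genes in this direction. Serpina6, corticosteroid-binding globulin, was at 0.85 ± 0.31 (adjusted p = 0.402) and Apom at 0.81 ± 0.33 (adjusted p = 0.478). In DEN/HFD against chow among saline livers, 8 were positive, Apoa2 at 0.86 ± 0.27 (adjusted p = 0.26) and transferrin (Trf) at 0.76 ± 0.27 (adjusted p = 0.296) with the smallest p-values. None of the 14 passed the limma test in any comparison. On chow 2 higher and 1 lower had an unadjusted p under 0.05, beside 4.76% and 4.3% of all genes. In DEN/HFD against chow 2 of them were higher with such a p among saline livers (5.46% of all genes), and 4 were lower among MCOPPB livers (6.35%).

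The upstream signals were near the floor of these libraries. Of 8 cytokines, 1 (Il1a) passed the filter. Il6 was above the lowest value in 2 libraries, at up to 4.31 normalized counts, and it was at 0 in chow MCOPPB 1. Il1b reached 24.9 and Tnf 13.96, while Osm, Lif and Il22 were at 0 in all 15 libraries. Expression of these cytokines in other organs was not measured. Of 11 receptors, 10 were tested by limma and none passed. On chow 1 higher and 1 lower had an unadjusted p under 0.05, beside 4.76% and 4.3% of all genes. In each comparison of DEN/HFD with chow 2 were lower with such a p. Of all genes, 5.5% were so among saline livers and 6.35% among MCOPPB livers. Il6ra, the interleukin 6 receptor, was at 0.76 ± 0.30 (adjusted p = 0.431) and Osmr, the oncostatin M receptor, at -0.82 ± 0.32 (adjusted p = 0.431) on chow with MCOPPB.

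All 15 signalling genes and transcription factors were tested, and none passed the limma test in any comparison. On chow with MCOPPB none had an unadjusted p under 0.05. In DEN/HFD against chow among saline livers 2 were higher with an unadjusted p under 0.05, beside 5.46% of all genes. Cebpb had the smaller p of these, at 1.57 ± 0.37 (adjusted p = 0.166). Cebpb stood at 137, 394 and 184 normalized counts in chow saline and 1071, 767, 575 and 908 in DEN/HFD saline livers. Every DEN/HFD saline liver lay above every chow saline liver, beside 4.73% of all genes. DEN/HFD saline 4, low for 9 of the 10 acute phase genes, was not low for Cebpb. Cebpa was at 0.61 ± 0.24 (adjusted p = 0.335) there. Among MCOPPB livers 4 of the 15 were higher under DEN/HFD with an unadjusted p under 0.05, beside 5.98% of all genes. Of 10 genes for binding and clearance of these proteins, 6 were tested by limma and none passed. With an unadjusted p under 0.05, 1 was higher on chow with MCOPPB, beside 4.76% of all genes. In DEN/HFD against chow, 1 was higher among saline livers (5.46% of all genes). Among MCOPPB livers 1 was higher and 1 lower (5.98% and 6.35%). Hmox1, the haem oxygenase that breaks down haem, was at 1.17 ± 0.30 (adjusted p = 0.181) in DEN/HFD against chow among saline livers. Without DEN/HFD saline 4 it was at 1.39 ± 0.30 and just passed the limma test (adjusted p = 0.05 after rounding), as did 0.45% of all genes. Without both libraries it did not (adjusted p = 0.0699). Leaving these libraries out was chosen after values were seen, so no conclusion is drawn from this pass. Cd163, the macrophage receptor for haptoglobin bound to haemoglobin, was at -1.19 ± 0.29 (adjusted p = 0.0778) in DEN/HFD against chow among MCOPPB livers.

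Markers of other cells were read beside these results. The summed level of 12 neutrophil markers was 29.9 to 112 normalized counts in chow saline livers and 7.48 to 82.2 in chow MCOPPB livers, and chow MCOPPB 1, at 82.2, lay within the chow saline range. None of the 12 was at 0 in all libraries, and 2 passed the filter. The 10 markers of macrophages and Kupffer cells, the resident macrophages of the liver, summed to 895 to 1362 in chow saline and 1758 to 3091 in chow MCOPPB livers. All 9 of them that were tested had a positive difference, 5 with an unadjusted p under 0.05, beside 4.76% of all genes higher, and none called. DEN/HFD livers had 1747 to 3650 with saline and 2151 to 3849 with MCOPPB. Like Orm2 and Lcn2, this sum did not overlap between the chow groups, and chow saline was its lowest group. The sum of 6 endothelial markers did not overlap either, at 829 to 995 in chow saline and 1058 to 1329 in chow MCOPPB livers. All 6 had a positive difference on chow, with a median of 0.31. Of 5 tested red blood cell markers 4 were positive there, with a median of 0.82, and the sum of all 6 on the list overlapped, at 3712 to 10753 in chow saline and 7421 to 13093 in chow MCOPPB livers. The part of these cells in the values of the acute phase genes was not tested. In DEN/HFD saline 4 the sums were the lowest of its group for macrophages (1747), neutrophils (23.5), adipocytes (31.7), cholangiocytes (166), stellate cells and fibroblasts (1004), T, B and NK cells (63.0), endothelial cells (967) and red blood cells (2739). The sum of the 10 hepatocyte markers there lay between those of the other livers of the group. All 10 hepatocyte markers were expressed in every group, as the tissue label states. Ncr1, an NK cell marker, was the 1 marker of all lists at 0 in all 15 libraries.

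The genes most like each of the 10 were read from Pearson correlations of the deposited values over the 15 libraries, as a description in which 1 library weighs heavily. Each r given is the highest over all tested genes outside the 10, and a search this wide gives high values by itself. Itih4 was the closest to Saa1 (r = 0.85) and Orm1 (0.89), and Prg4, a secreted proteoglycan, to Saa2 (0.86) and Hpx (0.85). Lacc1 was closest to Orm2 (0.85) and Apcs (0.82), 4430402I18Rik to Lcn2 (0.87) and Surf4, a cargo receptor of the secretory pathway, to Hp (0.86). Saa3 and Saa4 had other neighbours, Cib1 (0.89) and Acmsd (0.87). Without chow MCOPPB 1, over 14 libraries, the closest genes were others for 8 of the 10. Flot1 came closest to Saa2 (0.91), Orm3 to Orm2 (0.87), Synpo to Lcn2 (0.91) and Myh9 to Hpx (0.94). Saa3 and Saa4 kept Cib1 (0.89) and Acmsd (0.84).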

How the data were processed

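Liver RNA of 15 mice was sequenced, per the labels' protocols, from 250 ng of total RNA as directional libraries of single 75-nt reads. Per the submitters' processing notes, Trimmomatic, STAR 2.7.0e, HTSeq and DESeq2 were used with GRCm38 (mm10), and their settings are not given in the sources used here. The authors deposited variance-stabilised log2 values for 54281 Ensembl genes. The lowest value, 5.49, stands for 0 reads, and this scale understates the differences of low genes. Normalized counts were obtained by inverting the transformation. Whole reads were not recovered (15.1% to 45.1% of inverted values under 20 reads came out whole within 0.01 read), so depth is only estimated and counting intervals are left out.

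Groups came from the sample titles. A gene was kept where 3 or more libraries exceeded the lowest value by 1 or more on the log2 scale (22.5 normalized counts), which left 11568 genes. Differences were tested with limma 3.58.1 (R 4.3.3), using 4 group means over the 15 libraries and a mean-variance trend, two-sided. Benjamini-Hochberg adjustment ran over all kept genes, and a gene passed at an adjusted p under 0.05. Errors of differences are SE from limma. The script was tested on simulated data. Alternatives were another filter, scale, normalization, covariates, array weights, a replicate block and leaving out each library. Gene names, positions and transcripts came from GENCODE M21, and promoters from RefSeq GRCm38.p6. No promoter of Orm1 or Hp was used here.

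The 10 genes and the other gene lists were chosen with earlier results of these data known. From each other list, genes that passed and up to 4 with the smallest p in a comparison were eligible to be named, with the 3 most correlated genes of each of the 10, Alb, and marker genes at 0 in all libraries. Hamp, the fibrinogen chains, Ttr, Apoa2 and the other genes named for their rank or level in chow MCOPPB 1 were chosen after their values were seen.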

Additional observations from a re-analysis of the deposited data

Results flagged for a closer look

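Of 20 gene and group pairs with 4 or 5 libraries, 4 held a library whose gap to its nearest neighbour was large for the range of its group. Chance gives about 1 in 20 for independent pairs. These pairs share libraries, and all 4 flags fall on the pair of libraries that stood apart, so no conclusion is drawn from the count. On chow with MCOPPB, library 1 was the highest for Saa2, at 16.83 on the deposited log2 scale beside 10.57 for the next library, and for Hpx, at 16.45 beside 14.97. Under DEN/HFD with saline, library 4 was the lowest for Lcn2, at 6.44 beside 8.91, and for Hpx, at 14.65 beside 15.29. Saa1 in chow MCOPPB 1 did not meet the rule, because chow MCOPPB 4 was high as well.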

How the results depend on the processing

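Across 24 alternatives, 15 of which left out 1 library, none of the 10 genes passed the limma test in any of the 5 comparisons. The lowest adjusted p was 0.125, and 74 of 1190 values changed sign, 45 of them with 1 library left out. The causes of these changes were not tested, beyond the number of libraries or genes an alternative removes. On chow with MCOPPB, where 37 genes of the table passed, the number was 15 with the first RIN value as a covariate and 13 to 50 with 1 library left out. Under DEN/HFD with MCOPPB the 3 genes became 6 without a filter, 8 with only the groups compared, 0 with quantile normalization, 0 with the second RIN value, 5 with the mitochondrial share, 8 with array weights and 0 to 6 with 1 library left out. For DEN/HFD against chow with saline the 6 became 1 with the first RIN value, 3 with the mitochondrial share, 3 with array weights and 1 to 52 with 1 library left out. For DEN/HFD against chow with MCOPPB the 66 became 135 with only the groups compared, 0 and 34 with the first and second RIN value, 148 with the mitochondrial share, 285 with array weights and 18 to 157 with 1 library left out. For the difference between the MCOPPB effects the 8 became 2 without a filter, 4 on the log2(normalized count + 1) scale, 3 and 2 with the first and second RIN value, 4 with the mitochondrial share and 2 to 12 with 1 library left out.

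The sign changes of the 10 genes were these. On chow with MCOPPB, Saa3 was at -0.068 on the log2(normalized count + 1) scale, -0.24 with the first RIN value and -0.19 to 0.20 with 1 library left out, and Saa4 at -0.026 with the first RIN value and -0.030 to 0.21. Under DEN/HFD with MCOPPB, quantile normalization put Orm1 at 0.10 and Hpx at 0.29. The second RIN value put Saa1 at 0.31, Saa2 at 0.58, Orm1 at 0.068, Hp at -0.011 and Hpx at 0.031. Saa3 was at -0.039 with the first RIN value, -0.18 with the mitochondrial share and -0.040 with array weights. With 1 library left out, Saa3 ranged from -0.23 to 0.17, Orm1 from -0.28 to 0.24, Orm2 from -0.23 to 0.54, Lcn2 from -0.22 to 0.84, Hp from -0.11 to 0.26 and Hpx from -0.20 to 0.050. For DEN/HFD against chow with saline, Orm1 was at 0.23 with the first RIN value, 0.37 with the mitochondrial share and -0.39 to 0.18 with 1 library left out. For DEN/HFD against chow with MCOPPB, Hpx was at 0.11 with quantile normalization and 0.015 and 0.00061 with the first and second RIN value, Saa4 at 0.036 and Hp at -0.032 with the first, and Hp at -0.0062 with array weights. With 1 library left out, Saa2 ranged there from -1.48 to 0.71, Saa4 from -0.24 to 0.017, Lcn2 from -1.02 to 0.10, Hp from -0.14 to 0.36, Hpx from -0.16 to 0.31 and Apcs from -0.27 to 0.18. Saa3 in the difference between the MCOPPB effects was at -0.030 with quantile normalization, -0.43 with the mitochondrial share, -0.089 with array weights and -0.24 to 0.20 with 1 library left out.

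Replicate numbers did not pair the libraries: of 19 pairs with the same number, 5 had residuals correlated above 0.1. With the number as a replicate block, 23, 0, 6, 16 and 2 genes passed in the 5 comparisons in the order above. The block put Lcn2 at -0.029 and Hp at -0.077 under DEN/HFD with MCOPPB, Hp at -0.31 in DEN/HFD against chow with MCOPPB, and Apcs at -0.037 and Saa3 at -0.049 in the difference between the effects.

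With chow MCOPPB 1 and DEN/HFD saline 4 left out together, chosen after seeing the data, 40, 0, 40, 102 and 5 genes passed. Saa2 passed in DEN/HFD against chow with saline, and 13 of the values changed sign, and the 13 also did so under at least 1 of the fits with 1 library left out. Depth limits the lowest levels most: those of the 10 genes were Saa3 in chow MCOPPB 2 (14.3 normalized counts) and Lcn2 in DEN/HFD saline 4 (20.3).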
